A study of Mus musculus with 5 samples.

Results

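Neutrophil granule and identity genes are 10 genes whose transcripts mark neutrophils and their precursors: S100a8, S100a9, Retnlg, Csf3r, Mmp8, Mpo, Elane, Ltf, Ngp and Camp. They were taken by gene symbol and were chosen with earlier results of these data known. Each was represented by 1 probe printed once on the array, out of 22911 genes that could be named. They were measured in whole colon of C57BL/B6 mice on 5 single-color Agilent arrays, 1 mouse per array. Control held 2 mice, untreated in the words of the study, and NT-3N 3 hr held 3 wild-type mice, 8 weeks old, killed 3 hr after intravenous injection of NT-3N, a modified human IL-11 that works as an agonist of its receptor. The age of the Control mice is not given in the sources used here, and no vehicle injection is described, so the injection and the agonist cannot be told apart. The comparison addresses which transcripts of the colon differed between mice 3 hr after the NT-3N injection and untreated mice. With 2 and 3 arrays, 10 splits of the arrays are possible and a two-sided exact permutation test of 1 gene could not go below p = 0.1, so tests were read from limma fitted over all 32917 features.

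Neutrophils are short-lived leukocytes that are made in the bone marrow, circulate in blood and enter tissue within hours of an inflammatory signal. Their granule proteins are made in sequence: azurophil (primary) granule proteins in promyelocytes, specific (secondary) granule proteins in myelocytes, and gelatinase granule proteins in later stages. S100A8 and S100A9 together form calprotectin, which fills the cytosol of the mature cell and is used as a fecal marker of gut inflammation. IL-11 signals through its own receptor chain and gp130, and activates the transcription factor STAT3.

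S100a8 and S100a9 lie next to each other on chromosome 3 and were the genes among the 10 with a signal well above background on all 3 NT-3N arrays and on neither Control array. Because they shared this pattern, the RefSeq sequence at each start is shown (GRCm38.p6, 250 bases before the annotated start and 20 bases from it, 5′ to 3′ in the direction of transcription). The S100a8 stretch is chr3:90668821-90669090 on the plus strand, and the S100a9 stretch is chr3:90695702-90695971 on the minus strand. Capitals mark matches to the TATA box letters TATAAA and to a C/EBP-type motif, TTGCNNAA.
S100a8: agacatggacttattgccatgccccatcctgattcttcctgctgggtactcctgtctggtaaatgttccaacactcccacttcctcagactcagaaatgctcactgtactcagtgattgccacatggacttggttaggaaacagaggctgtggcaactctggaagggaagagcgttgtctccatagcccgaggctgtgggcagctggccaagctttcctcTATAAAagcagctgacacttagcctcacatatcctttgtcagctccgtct
S100a9: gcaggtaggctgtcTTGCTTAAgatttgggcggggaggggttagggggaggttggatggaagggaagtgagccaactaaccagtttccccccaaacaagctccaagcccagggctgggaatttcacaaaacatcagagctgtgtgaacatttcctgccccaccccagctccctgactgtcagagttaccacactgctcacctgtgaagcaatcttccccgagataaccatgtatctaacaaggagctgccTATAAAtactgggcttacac
In S100a8, TATAAA began 30 bases before the annotated start. In S100a9 the same letters began at the annotated start itself, and a C/EBP-type match (TTGCTTAA) began 236 bases before it. C/EBP factors are regulators of granulocyte genes. On either strand of the whole 300-base window, from 250 bases before the start to 50 after it, 5 of the 10 genes held a C/EBP-type match (S100a9, Retnlg, Mmp8, Ltf and Ngp), against 10.8% of 32851 RefSeq promoters. TATAAA was found in 3 of 10 (S100a8, S100a9 and Mmp8) and in 13.6% of all promoters. A STAT-type motif, TTCNNNGAA, was found in 0 of 10 and in 8.3% of all promoters. These matches describe letters in short windows, and no binding was measured here.

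Of 56605 probes, 72.9% and 73.0% had a signal well above background on the Control arrays and 70.6% to 71.3% on the NT-3N arrays. No spot was saturated, and correlations between arrays, across features, ranged from 0.9803 to 0.9924. The 5 arrays shared a slide and a scan time. Unless unscaled signal is named, levels are log2 normalized signal, where a difference of 1 is a doubling. On this scale the dimmest signal that counted as well above background lay at 3.33 and 3.40 on the Control arrays and between 3.67 and 3.70 on the NT-3N arrays. Features of all kinds had a median log2 fold change (NT-3N over Control) of -0.02, and 46.4% were higher in NT-3N.

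S100a9, the calprotectin subunit that stabilizes its partner, was well above background in NT-3N mice alone. Its log2 signal was 1.56 and 1.58 in the Control mice and 8.58, 6.23 and 6.65 in NT-3N mice 1, 2 and 3. The groups did not overlap, and the lowest NT-3N mouse was above the background limit that neither Control mouse reached. On the unscaled processed signal, the scanner gave 2.63 and 2.80 in Control against 337.4, 84.5 and 104.2 in NT-3N. In Control these signals were about the size of their own error (signal over error 0.997 and 1.01), while in NT-3N the signal was 9.96, 9.31 and 9.50 times its error. Neither Control value was well above background, so each was raised to the dimmest signal well above background on its array. Against that limit the mean S100a9 signal in NT-3N was at least 13.9-fold higher, or at least 8.56-fold without NT-3N replicate 1, its highest mouse. The bound (log2 3.79) holds for this processing only, as normexp background correction gave a log2 fold change of 1.72. The fitted log2 fold change of 5.59 ± 0.67 (SE) rests on Control values that were not well above background and is no bound. limma gave it an adjusted p of 0.0619, which missed the threshold of 0.05.

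S100a8, the other subunit of calprotectin, had the same pattern. The log2 signal of S100a8 was 2.57 and 2.51 in Control and 6.21, 4.28 and 5.15 in NT-3N mice 1, 2 and 3. Again no Control array and all NT-3N arrays were well above background, the groups did not overlap, and NT-3N mouse 1 was highest. The unscaled signal was 5.98 and 6.07 in Control and 67.2, 21.0 and 36.2 in NT-3N. Against the same limit, the mean NT-3N signal of S100a8 was at least 3.61-fold that of Control, or at least 2.57-fold without NT-3N replicate 1. This bound (log2 1.85) also holds for this processing only, as normexp gave S100a8 a log2 fold change of 0.68. Its fitted log2 fold change of 2.67 ± 0.56 (SE) had an adjusted p of 0.222 in limma. Of all 56605 probes, 40 (0.0707%) were well above background on no Control array and on all 3 NT-3N arrays, as the S100a8 and S100a9 probes were, and 340 (0.601%) were so on both Control arrays and on no NT-3N array. In bulk tissue, a change in the number of cells of a type and a change in RNA per cell cannot be told apart. This holds for S100a8 and S100a9 and for all genes below.

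**Figure D1:**
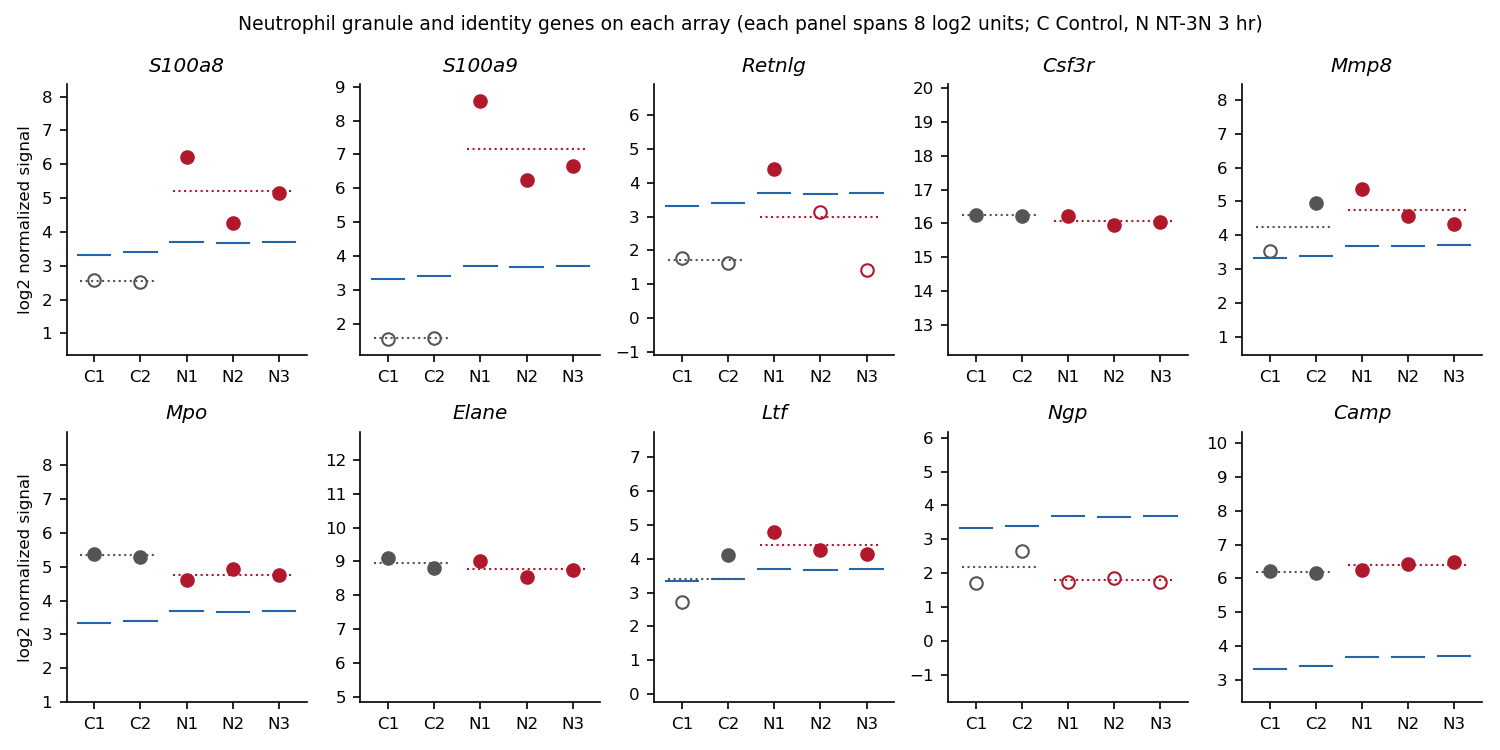
Log2 normalized signal of each of the 10 genes on the 2 Control arrays (C1, C2, gray) and the 3 NT-3N arrays (N1 to N3, red), with the group mean as a dotted line. Filled points are well above background, open points are not, and blue bars give the lowest signal well above background on that array where it lies inside the panel. S100a8 and S100a9 are open in both Control mice and filled in all 3 NT-3N mice, and Retnlg is filled only in N1.

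Differences were smaller among the specific granule genes, and some of them rested on 1 Control mouse. Ltf encodes lactoferrin, an iron-binding protein of specific granules. In Control it gave a log2 signal of 2.72 and 4.10, and in NT-3N of 4.78, 4.27 and 4.15, with 1 of 2 Control and 3 of 3 NT-3N arrays well above background. The groups did not overlap, but Control mouse 2 lay only just under the lowest NT-3N mouse. The log2 fold change was 0.99 ± 0.48 (SE; adjusted p = 0.579), which became 0.31 when Control replicate 1 was left out and 1.69 when Control replicate 2 was.

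Mmp8 encodes neutrophil collagenase, also a specific granule protein. Its log2 signal was 3.54 and 4.96 in Control and 5.37, 4.55 and 4.32 in NT-3N, and again only Control mouse 2 was well above background among the Control mice. The groups overlapped: Control mouse 2 was above NT-3N mice 2 and 3. The log2 fold change was 0.50 ± 0.52 (SE; adjusted p = 0.787), and it turned to -0.22 without Control replicate 1.

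Camp encodes the precursor of the antimicrobial peptide CRAMP, the mouse cathelicidin, which other cells including epithelium can also make. Its log2 signal was 6.22 and 6.17 in Control and 6.25, 6.42 and 6.50 in NT-3N, well above background on all 5 arrays. NT-3N was higher with no overlap, by 0.19 ± 0.16 (SE, log2; adjusted p = 0.738), a difference whose 95% confidence interval ran from -0.20 to 0.58.

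Ngp encodes neutrophilic granule protein, a cystatin-like protein of specific granules that is abundant in marrow. It was well above background on none of the 5 arrays, with log2 signals of 1.70 and 2.66 in Control and 1.75, 1.86 and 1.75 in NT-3N. On all 3 NT-3N arrays its spot was not positive and significant, and the signal was 0.992, 0.997 and 0.997 of its own error. No fold is given for it.

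Both azurophil granule genes among the 10 had negative estimates. Of other azurophil granule proteases, Prtn3 and Ctsg had positive estimates of 0.03 and 0.33 (log2 fold change). Mpo encodes myeloperoxidase, which makes hypochlorous acid. Log2 signals of Mpo were 5.39 and 5.29 in Control and 4.60, 4.95 and 4.74 in NT-3N, well above background throughout. All 3 NT-3N mice were below both Control mice, with a log2 fold change of -0.57 ± 0.23 (SE; adjusted p = 0.502). Elane encodes neutrophil elastase, a serine protease of the same granules. Log2 signals of Elane were 9.11 and 8.79 in Control and 9.02, 8.55 and 8.74 in NT-3N, the groups overlapped, and the log2 fold change was -0.18 ± 0.18 (SE; adjusted p = 0.772).

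Retnlg and Csf3r are identity genes outside the granules. Retnlg encodes resistin-like gamma, a secreted protein used as a marker of mature mouse neutrophils. Its log2 signal was 1.78 and 1.63 in Control and 4.40, 3.13 and 1.41 in NT-3N. Only NT-3N mouse 1 was well above background, and NT-3N mouse 3 was below both Control mice, so Retnlg was not tested and no fold is given. NT-3N mouse 1 was also the mouse with the highest S100a8, S100a9, Ltf and Mmp8 signals. The same mouse had the lowest Mpo signal of all arrays (4.60) and the lowest Camp signal of the NT-3N mice (6.25). Its Elane signal (9.02) lay between those of the Control mice.

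Csf3r encodes the receptor of granulocyte colony-stimulating factor, which drives neutrophil production. Its probe was bright on every array, with log2 signals of 16.25 and 16.23 in Control and 16.23, 15.96 and 16.04 in NT-3N. NT-3N mouse 1 matched Control mouse 2, the other NT-3N mice lay lower, and the log2 fold change was -0.16 ± 0.09 (SE; adjusted p = 0.628). The probe was named by its accession, and whether a signal this bright comes from Csf3r transcripts was not tested. Levels of different probes cannot be compared, so it does not rank Csf3r against the other genes.

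Counted together, 8 of the 10 genes passed the filter on dim probes and 0 of these were called at an adjusted p under 0.05 in limma, where 0.143% of all features were (0.125% higher and 0.0182% lower). The local-pooled-error test, run as an alternative, called 1, S100a9, as higher, where it called 0.662% of all features higher and 0.55% lower. At an unadjusted p under 0.05, S100a8 and S100a9 were higher (4.95% of all features) and Mpo was lower (4.67% of all features). S100a8 and S100a9 were also at least 2-fold higher at that p, as were 0.793% of all features, and 0 of the 10 were at least 2-fold lower (0.51% of all features). Groups that did not overlap were higher in NT-3N for S100a8, S100a9, Ltf and Camp (13.5% of all features) and lower for Mpo (14.8% of all features), 5 genes where 28.4% of all features had no overlap in either direction. S100a8 passed the filter through its NT-3N arrays alone, as did S100a9, so counts over the genes that passed are given as a description.

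**Figure D2:**
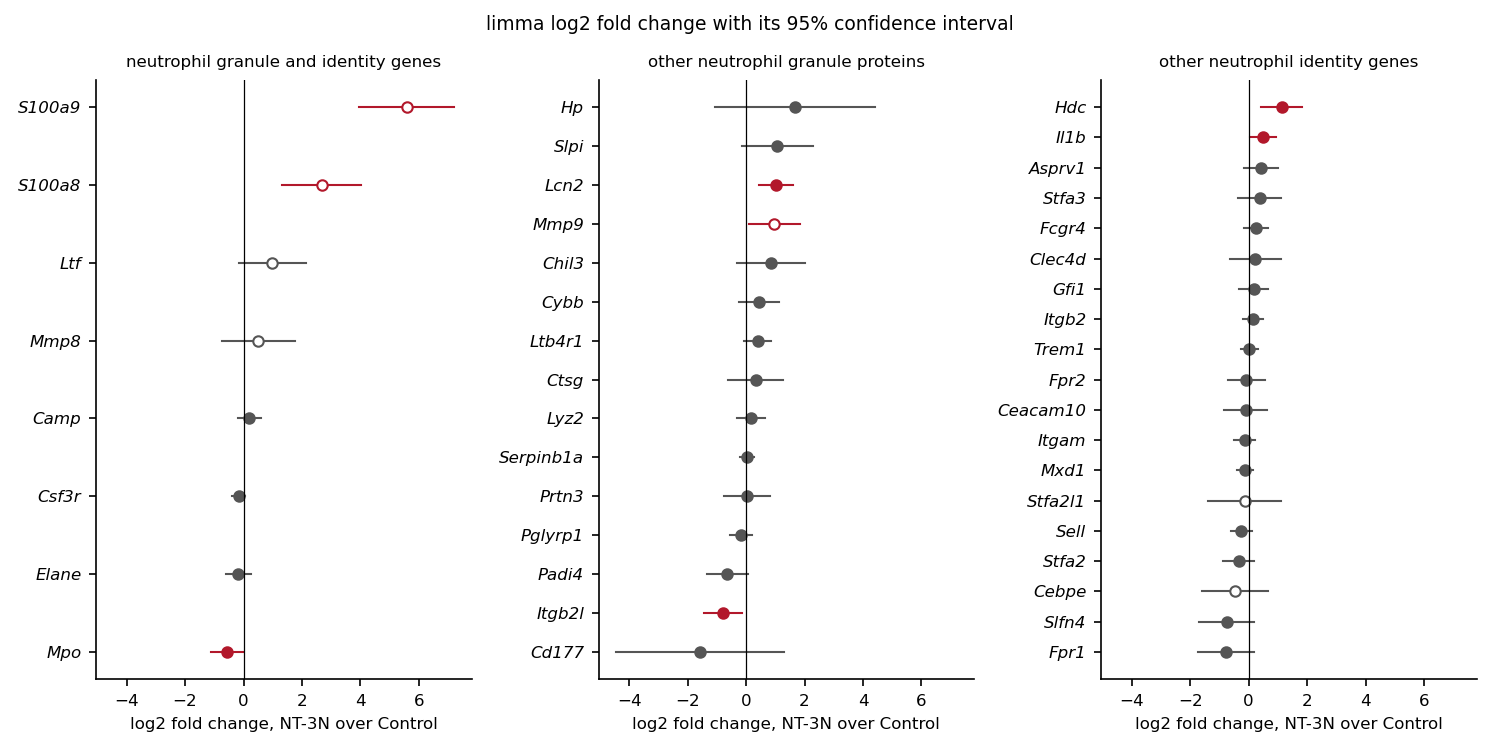
limma log2 fold change (NT-3N over Control) with its 95% confidence interval for the tested neutrophil granule and identity genes (left) and for other neutrophil granule (middle) and identity genes (right). Red marks an unadjusted p under 0.05, and filled points were well above background on all 5 arrays. S100a9 (5.59) and S100a8 (2.67) lie to the right of all other genes, but their positions rest on Control values that were not well above background and are no bounds.

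The label of neutrophil genes was set against the defining markers of the cell. Cxcr2, the chemokine receptor of mature neutrophils, was well above background on no array, with log2 signals of 1.24 and 2.40 in Control and 2.28, 2.69 and 1.26 in NT-3N. Ly6g was not among the genes that could be named on the array. Trem3, Stfa1, Mmp25, Fcnb and Bpi were also well above background on no array. Clec4e, a lectin receptor of activated myeloid cells, was well above background only in NT-3N mouse 1 (log2 4.39, against 1.24 to 1.76 on the other arrays), as Retnlg was. S100a8 and S100a9 were well above background in all NT-3N mice, as were Mmp8, Mpo, Elane, Ltf, Camp and the Csf3r probe. Cxcr2 and Ngp were so in none of them. On all 5 arrays, 14 of 18 other granule genes and 17 of 23 other identity genes that could be named were well above background. Of 45574 features of all kinds, 29830 were so. Which cells gave these signals was not tested.

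Other proteins of neutrophil granules lay on both sides of 0. Of 18 named, 15 were tested, and 11 had positive and 4 negative estimates, with a median log2 fold change of 0.33. limma called 0, with 2 higher (4.95% of all features) and 1 lower (4.67% of all features) at an unadjusted p under 0.05. The local-pooled-error test called Hp and Slpi as higher, where it called 0.662% of all features higher. Lcn2, the siderophore-binding lipocalin that colon epithelium also makes, was 7.77 and 8.06 in Control and 9.41, 8.77 and 8.66 in NT-3N, with no overlap (log2 fold change 1.03 ± 0.24, SE; adjusted p = 0.266). The mean of the 2 Lcn2 probes gave 1.48. Mmp9, a gelatinase, was well above background on 0 of 2 Control and 2 of 3 NT-3N arrays by its brightest probe (adjusted p = 0.483 in limma). Its log2 signal was 3.69 and 3.27 in Control and 4.39, 4.88 and 4.05 in NT-3N. No bound is given, because the NT-3N mean includes a value that was not well above background. The other Mmp9 probe was well above background on 1 of 3 NT-3N arrays and on neither Control array, and no fold is given for it. Hp, encoding haptoglobin, had a log2 fold change of 1.68 and Slpi, an inhibitor of neutrophil elastase, one of 1.07, and both overlapped between the groups. Slpi had 2 probes, and the mean of its probes gave 0.46, against 1.07 for its brightest probe. The local-pooled-error call of Slpi also rests on the brightest probe. The Hp estimate depended on single mice, with 0.69 once Control mouse 2 was left out and 0.82 once NT-3N mouse 1 was. It became 2.68 on leaving out Control mouse 1 and 2.74 on leaving out NT-3N mouse 3. Cd177, a neutrophil surface protein, differed by -1.59, with its lowest value of 5.45 in NT-3N mouse 2 and an overlap of the groups. The Cd177 estimate was -0.33 when that mouse was left out and -0.87 when Control mouse 2 was, against -2.32 on leaving out Control mouse 1 and -2.37 on leaving out NT-3N mouse 1. Itgb2l, a leukocyte integrin beta subunit, had a log2 fold change of -0.80 (adjusted p = 0.433) with no overlap.

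Other neutrophil identity genes were spread evenly around 0. Of 23 named, 19 were tested, 9 had positive and 10 negative estimates, and the median log2 fold change was -0.08. limma called 0, with 2 higher (4.95% of all features) and 0 lower (4.67% of all features) at an unadjusted p under 0.05. The local-pooled-error test called 0. Hdc, which makes histamine and is used by neutrophils, mast cells and basophils, was 4.45 and 4.30 in Control and 5.96, 5.17 and 5.36 in NT-3N (1.12 ± 0.29, SE, log2; adjusted p = 0.328). Il1b, an inflammatory cytokine, differed by 0.49 (adjusted p = 0.479). Fpr1, a receptor of bacterial formyl peptides, and Slfn4, a myeloid schlafen gene, had the lowest values, at -0.78 and -0.75, and both overlapped. The subunits of the integrin Mac-1, Itgam and Itgb2, differed by -0.12 and 0.17.

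Genes that recruit neutrophils had positive estimates where they were tested. Of 12 attractants and growth factors, 6 were tested, and 3 were well above background on all 5 arrays. All 6 tested lay above 0, with a median log2 fold change of 0.64. Csf3, Cxcl2, Cxcl3, Ppbp and Il17a were well above background on no array and were not tested. Csf2 was also not tested, as it was well above background on 1 NT-3N array and on no Control array. Cxcl1, a ligand of CXCR2, was 2.37 and 3.91 in Control and 6.996, 6.31 and 5.90 in NT-3N, with 1 of 2 Control arrays well above background (3.26 ± 0.52, SE, log2; adjusted p = 0.126), and its estimate was 2.51 when Control mouse 1 was left out and 4.05 when Control mouse 2 was. Cxcl5, also a CXCR2 ligand, differed by 1.22 (adjusted p = 0.36), and the lowest estimate, of Hc (complement C5), was 0.05. limma called 0 of these attractants, with 2 higher at an unadjusted p under 0.05 (4.95% of all features). The local-pooled-error test called 1, Cxcl1, as higher (0.662% of all features). Of 6 tested endothelial adhesion genes, Selp, encoding P-selectin, differed by 1.75 (adjusted p = 0.363) and Icam1 by 1.08 (adjusted p = 0.182), with no overlap for either, and Selplg, the ligand of P-selectin, by 0.00. Selp had 3 probes, and the mean of its probes gave 1.37. Neither test called a gene of this list, and 2 were higher at an unadjusted p under 0.05 (4.95% of all features).

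In the S100 family, 13 of 14 other genes were tested, and 3 had positive and 10 negative estimates. limma called 0, with 1 higher at an unadjusted p under 0.05 (4.95% of all features). The local-pooled-error test called 1, S100g, as lower (0.55% of all features). S100a11 had the highest estimate, at 0.26 (adjusted p = 0.515), followed by S100a14 at 0.08, and S100g, a calcium carrier of epithelium, the lowest, at -1.09 (adjusted p = 0.532), followed by S100a3 at -0.24. On chromosome 3 the order is S100a5, S100a6, S100a7a, S100a8, S100a9 and Pglyrp4. S100a5 and S100a6 differed by -0.13 and -0.02, and S100a7a and Pglyrp4 were well above background on no array. Prtn3, beside Elane and encoding the azurophil protease proteinase 3, differed by 0.03.

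Among the closest relatives by type of protein, 6 of 16 tested had an unadjusted p under 0.05, each higher in NT-3N, as were 4.95% of all features. limma called 0, and the local-pooled-error test called 3 higher (Mmp3, Csf2rb and Il6st; 0.662% of all features) and 1 lower (Retnlb; 0.55% of all features). The metalloproteinases Mmp3 and Mmp10 (stromelysins) differed by 1.69 (adjusted p = 0.0991) and 1.31 (adjusted p = 0.365), against 0.50 for Mmp8, and Mmp13, another collagenase, by 0.83. Csf2rb, the shared receptor chain of GM-CSF, IL-3 and IL-5, differed by 1.01 (adjusted p = 0.186) and Il6st, encoding gp130, by 0.80 (adjusted p = 0.172), against -0.16 for Csf3r. The mean of the Csf2rb probes gave 0.79. Retnla differed by 0.34 and Retnlb, a goblet cell product related to Retnlg, by -0.99 with overlap, or by -0.20 without NT-3N replicate 3 and -1.72 without NT-3N replicate 2. Cfd, the adipocyte protease beside Elane, had the lowest estimate, at -1.21 (adjusted p = 0.844), and its estimate turned positive without Control replicate 1 (0.52), without NT-3N replicate 3 (0.35) and with a replicate block (0.35). Of 5 genes for receptors and adaptors of calprotectin, Tlr4 differed by 0.38 (adjusted p = 0.363), Myd88 by 0.34 (adjusted p = 0.277), Cd36 by 0.45 and Ager by -0.19. Neither test called a gene of this list, and 2 were higher at an unadjusted p under 0.05 (4.95% of all features).

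**Figure D3:**
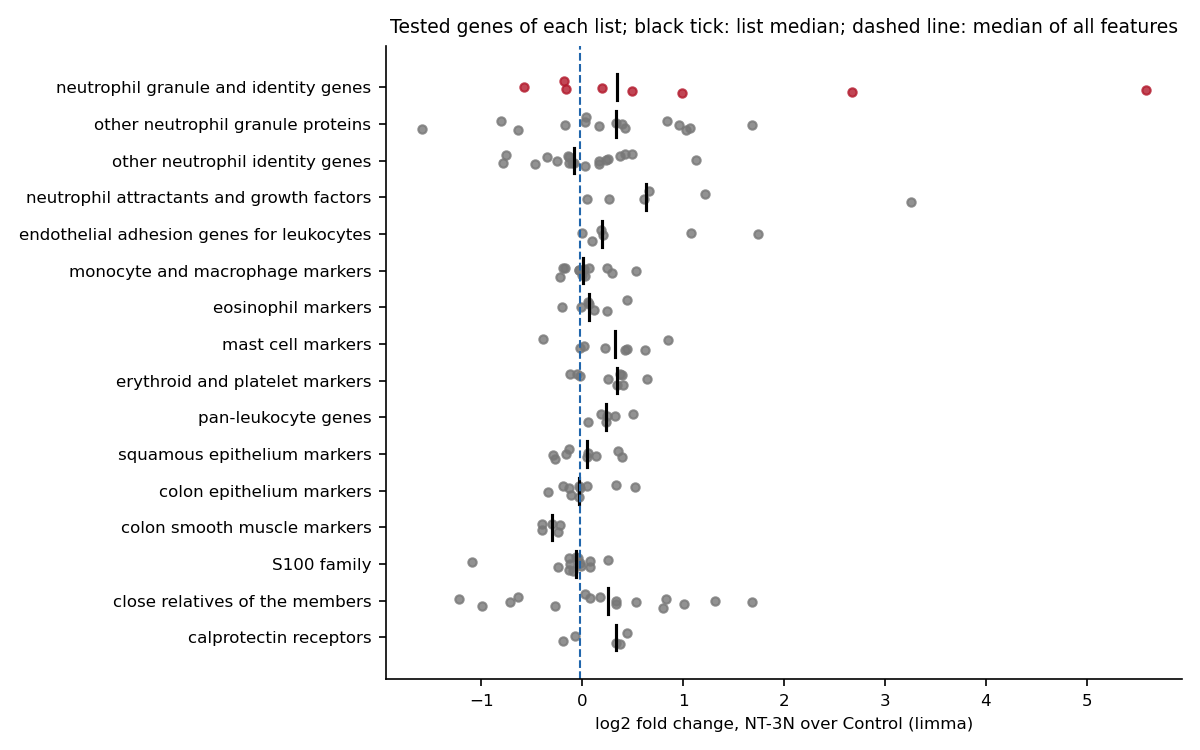
limma log2 fold change of every tested gene of each list (points), with the list's median (black tick) and the median of all features (dashed line, -0.02). S100a8 and S100a9, at the right of the top row, and Cxcl1 (3.26) among the attractants stand apart from the other genes shown.

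Markers of other cells that whole colon can hold were measured beside these genes. Monocyte and macrophage markers had 6 higher and 6 lower of 12 tested, with a median log2 fold change of 0.01 (Mrc1, 0.53; Cd68, 0.29; Ccr2, -0.22; Cx3cr1, -0.19), and their mean log2 signal was 10.2 in both Control mice and between 10.0 and 10.4 in NT-3N. All 6 pan-leukocyte genes had positive estimates, from 0.06 (Laptm5) to 0.50 (Cd53), with a mean of 9.46 and 10.1 in Control and 9.93 to 10.1 in NT-3N. Erythroid and platelet markers had 6 higher and 3 lower of 9 tested. The alpha globin genes Hba-a1 and Hba-a2 differed by 0.40 and 0.39 (adjusted p = 0.386 and 0.374) with no overlap, while of the platelet genes, Gp9 and Tubb1 were well above background on no array, Itga2b on 4 of 5, and Pf4, Gp1bb and Treml1 on all 5. Slc4a1 and Gp1bb had the lowest estimates, -0.12 and -0.05. Eosinophil markers had 5 higher and 2 lower of 7 tested (Ear2, 0.45; Prg3, -0.20), with the defining genes Epx and Ccr3 on no array. Mast cell markers had 6 higher and 2 lower of 8 tested (Mcpt4, 0.63; Fcer1a, 0.45; Kit, -0.39; Tpsb2, -0.02). Their mean varied within both groups, at 7.15 and 5.73 in Control and 5.93, 8.38 and 6.07 in NT-3N. Neither limma nor the local-pooled-error test called a gene of these lists. At an unadjusted p under 0.05 limma had 1 monocyte, 1 pan-leukocyte and 3 erythroid genes higher and 0 eosinophil or mast cell genes. Of all features, 4.95% were higher and 4.67% lower at that p. The part of blood or other leukocytes in the S100a8 and S100a9 signals was not tested.

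Epithelium and muscle were looked at because keratinocytes also make calprotectin. Of 15 squamous epithelium markers, 9 were tested, 5 were higher and 4 lower (Krt6a, 0.40; Krt10, 0.35; Sfn, -0.29; Krt15, -0.26), and Krt1, Krt4, Krt13, Dsg3, Ivl and Sprr1b were well above background on no array. Their mean log2 signal was 6.25 and 6.35 in Control and 6.14 to 6.48 in NT-3N. All 10 colon epithelium markers were well above background on all arrays, with 3 higher and 7 lower (Slc26a3, 0.53; Aqp8, 0.34; Car1, -0.34; Lgr5, -0.19). All 5 smooth muscle markers had negative estimates, from -0.22 (Myh11) to -0.40 (Actg2), 4 of them with no overlap, where 14.8% of all features were lower with none. Neither test called a gene of these lists, and Sfn and Myh11 were lower at an unadjusted p under 0.05 (4.67% of all features).

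Genes with profiles most like S100a8 and S100a9 over the 5 arrays were sought among 17934 tested genes, by the root mean square difference of log2 signals centered on each gene's mean. Nearest to S100a8 were Selp (0.48), Kng1 (kininogen, 0.50), Serpina3m (0.55), Steap4 (0.56) and 1700015G11Rik (0.58). Genes were chosen by likeness over the same arrays, so a shared group difference comes with the choice and is no separate result. The same limit holds for limma calls among the genes nearest to S100a9. Each gene nearest to S100a8 was higher in every NT-3N mouse than in both Control mice. For 1700015G11Rik, the value in NT-3N mouse 2 (2.76) lay under the background limit. Selp, Serpina3m and Steap4 were also highest in NT-3N mouse 1. On the Control arrays, Kng1 and 1700015G11Rik were, like S100a8, not well above background. Nearest to S100a9 were Ms4a1 (the B cell antigen CD20, 1.28), Has1 (a hyaluronan synthase, 1.33), Cxcl1 (1.34), Serpina3n (1.41) and Krtap11-1 (1.44). These distances were larger than those from S100a8. The distance between S100a8 and S100a9 was 1.45. Has1, Serpina3n and Krtap11-1 were called in limma (adjusted p = 0.0178, 0.00266 and 0.00573), with log2 fold changes of 4.16, 3.33 and 3.18.

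**Figure D4:**
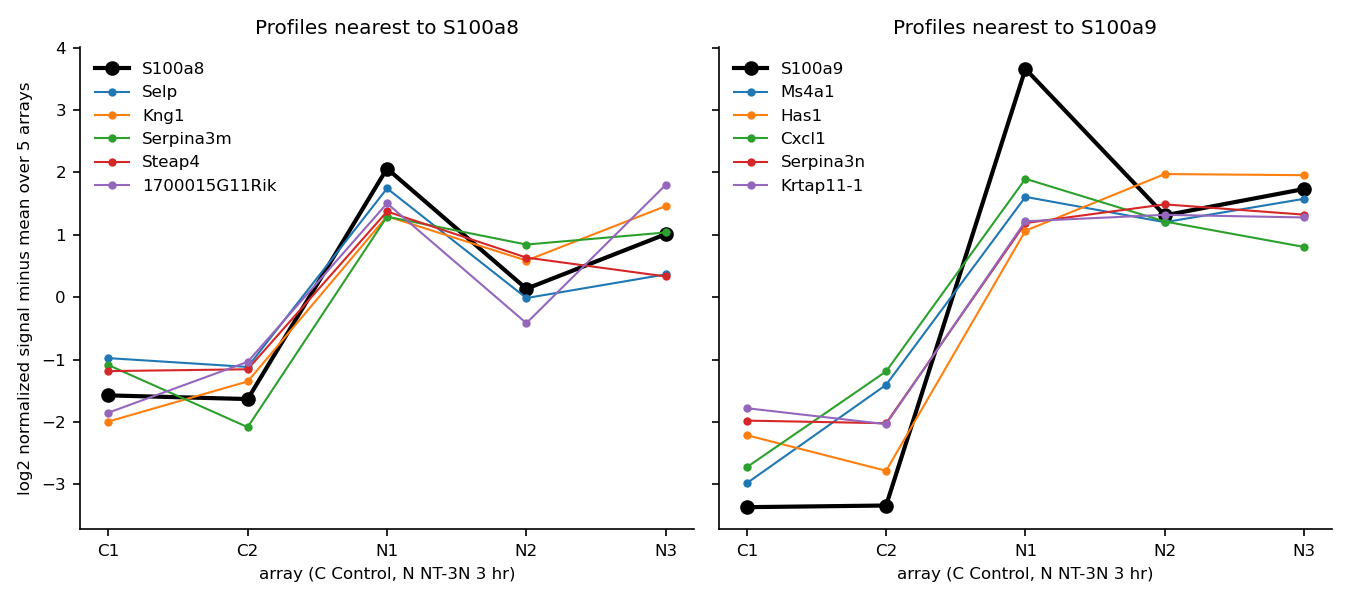
Log2 normalized signal minus the gene's mean over the 5 arrays, for S100a8 (left, black) and S100a9 (right, black) and the 5 genes nearest to each by root mean square difference. S100a9 lies below its neighbors in both Control mice and above them in NT-3N mouse 1, while Selp has a root mean square difference of 0.48 from S100a8.

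The S100a9 result was near the threshold and its call depended on the processing. It passed an adjusted p of 0.05 with median scaling (0.0411), with array quality weights (0.0175), with a local-pooled-error test (2.52e-08) and without NT-3N replicate 1 (0.0178). It did not pass under the other alternatives that gave a value, and had none in the deposited log2 table or where all 5 arrays had to be well above background. Its log2 fold change was between 4.91 and 6.03 when single arrays were left out and 1.72 under normexp background correction, and that of S100a8 was between 2.19 and 3.11, and 0.68. S100a8 was called under none of the alternatives.

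**Figure D5:**
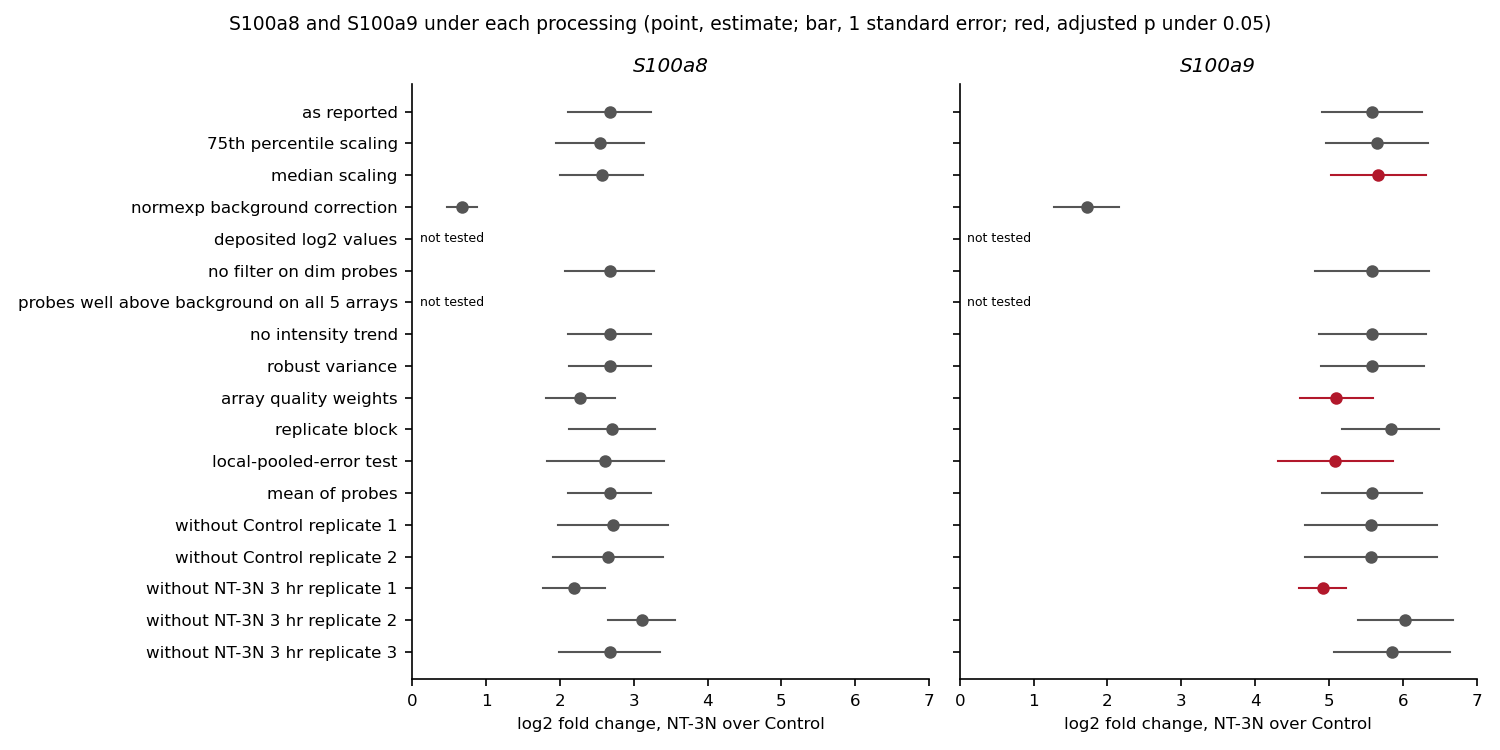
Log2 fold change (NT-3N over Control) of S100a8 (left) and S100a9 (right) as reported and under each alternative processing, with 1 standard error as bars and an adjusted p under 0.05 in red. All estimates are above 0, S100a9 is red in 4 alternatives and S100a8 in none.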

How the data were processed

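The authors hybridized Cy3-labeled RNA of whole colon from 5 mice to Agilent SurePrint G3 mouse arrays and read the spots with Feature Extraction 11.0.1.1. The deposited intensity of each spot was background-subtracted and not scaled between arrays; for spots that were not positive and significant (13.4% to 15.9% per array) it lay within 2% of the error of the spot for 99.8% to 100% of them. The authors also deposited log2 values of 37380 probes, quantile-normalized, which were used as an alternative only.

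Here control and outlier spots were left out, the intensity was log2-transformed, averaged per probe and quantile-normalized, and probes well above background on at least 2 of 5 arrays, with values on both Control and at least 2 NT-3N arrays, were kept. Accessions were matched to RefSeq symbols (GRCm38.p6; 32994 of 56605 probes), and a gene was represented by its brightest probe. NT-3N was set against Control in R 4.3.3 with limma 3.58.1 (lmFit, eBayes with an intensity trend, two-sided, Benjamini-Hochberg over 32917 features), which was tested on simulated data. A local-pooled-error test, which the study used, was run as an alternative. Where no Control array and all NT-3N arrays were well above background, the fold is given as a lower bound. The NT-3N mean was set against the Control mean after raising each Control value to at least the dimmest signal well above background on its array. This limit is that of the array and not of the probe. Mmp8 in Control mouse 1 lay above it (log2 3.54 against 3.33) and was not well above background. The bound compares means and carries no spread between mice. limma p-values set a difference against the spread between mice, pooled in part over features. The local-pooled-error test takes its spread from features of similar intensity and not from the gene's own mice. Where Control signals were about the size of their error, as for S100a9, their spread does not measure that between mice. The number of arrays limits the precision.

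The genes, lists, tests and alternatives were chosen with earlier results of these data known. Of each other list, genes called were to be named, otherwise those with the largest and smallest log2 fold change among genes well above background on all arrays (2 each, or 1 each where under 8 were tested). Genes named outside this rule (Lcn2, Mmp9, Cxcl1, Icam1, Mmp13, Csf2rb, Il6st, Retnla, Tlr4, Myd88, Itgam, Itgb2, Clec4e, Cxcr2, Prtn3, Ctsg and the neighbors of S100a8) were chosen after their values were seen.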

Additional observations from a re-analysis of the deposited data

How the results depend on the processing

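Over 17 alternatives, 30 of 32 genes followed kept the sign of their log2 fold change wherever they were tested. Mmp8 turned to -0.22 without Control replicate 1, and ranged up to 1.22 when single arrays were left out. Cfd turned to 0.35 with a replicate block, to 0.52 without Control replicate 1 and to 0.35 without NT-3N replicate 3, and ranged from -2.95 to 0.52 when single arrays were left out. The cause was not tested. Genes called among the 10 numbered 1, S100a9, with median scaling, array quality weights and the local-pooled-error test, and 0 to 1 when single arrays were left out, the 1 without NT-3N replicate 1. Genes at least 2-fold higher at an unadjusted p under 0.05 numbered 2, against 1 with normexp, which used the median spot signal and an offset of 50, and 0 with the deposited log2 values and with probes well above background on all 5 arrays, which hold neither S100a8 nor S100a9. They numbered 2 to 3 when single arrays were left out.

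Over all features, 41 were higher and 6 lower. These counts were 2 and 0 with no filter on dim probes, 2 and 0 with no intensity trend, 124 and 46 with array quality weights, and 218 and 181 with the local-pooled-error test. Lower features numbered 11 with the deposited log2 values, 13 with probes well above background on all arrays and 15 with robust variance. Leaving out single arrays gave 0 to 112 higher and 0 to 16 lower, with 112 higher without Control replicate 2, 68 without NT-3N replicate 1, 1 without NT-3N replicate 2 and 0 without NT-3N replicate 3; without Control replicate 1, 31 were higher and 0 lower. With the replicate number as a block, 0 and 0 were called, and S100a9 had a log2 fold change of 5.84 (adjusted p = 0.491) and S100a8 one of 2.70 (adjusted p = 0.608). Same-numbered mice deviated together by correlations of 0.129 and 0.0357 over 2 pairs, so the numbers were not taken to pair the mice. Where a group was left with 1 array, its spread was assumed to be that of the other group. The lower bounds ranged from 2.57 to 4.92-fold for S100a8 and from 8.56 to 18.7-fold for S100a9 when single arrays were left out. Signals near background limit the Control values of S100a8, S100a9, Retnlg and Ngp.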
